A study of Drosophila melanogaster with 3 samples.

Results

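Peaks at divergent shared promoters are places where the GFP-tagged protein CG12104 was found in the DNA that separates 2 protein-coding genes transcribed away from each other. They were chosen by position alone, from the 4060 peaks of the authors' IDR set, the peaks that ranked reproducibly between replicates (IDR, irreproducible discovery rate). A peak was kept when its summit, the point of highest enrichment, lay upstream of the nearest protein-coding transcription start site (TSS), within 500 bp of it, and also within 500 bp of the TSS of another protein-coding gene on the opposite strand. The rule kept 719 of 4060 peaks, or 17.7% (Wilson 95% interval 16.6 to 18.9%). These 719 were 41.4% of the 1738 peaks that lay upstream of and within 500 bp of a start site.

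All libraries came from whole Drosophila melanogaster embryos aged 0 to 24 h, of both sexes pooled, from a single transgenic line named CG12104-GFP that stably carries CG12104 with GFP at its C-terminus. The 3 biological replicates formed 1 group. Sonicated chromatin (size range 200 to 800 bp) was immunoprecipitated through the GFP tag, so the fusion and not the native protein was captured. The embryos mix all cell types and stages, so a peak cannot be assigned to a cell type, and no marker genes could be checked because no expression was measured. The labels do not say which promoter drives the transgene or how many copies there are, and untagged embryos were not analysed here.

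In compact genomes such as that of Drosophila many genes lie head to head, with start sites a short distance apart and a shared stretch of regulatory DNA between them. Such bidirectional promoters often serve housekeeping genes, and in flies their nucleosome-poor centre is commonly flanked by core promoter elements of housekeeping genes, such as the DNA replication-related element (DRE), the Ohler motifs 1, 6 and 7, and binding sites of the insulator protein BEAF-32. CG12104 is a little-studied gene of the HMG-box class. The HMG box is a DNA-binding fold that bends DNA through the minor groove, often with little preference for an exact sequence.

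The sequences at the summits show what kind of DNA carried the strongest signals. The windows below span 60 bp to each side of the summit (121 bases in all) for the 8 members with the highest signal, and for the promoter that CG12104 shares with its neighbour CG18170. They were read 5′ to 3′ from the + strand of the NCBI Release 6 assembly, the build called dm6. Capitals mark matches, on either strand, to DRE (TATCGATA), the BEAF-32 core (CGATA, which is contained in DRE), Motif 1 (GGTCACAC), Motif 6 (GTATTTT), Motif 7 (CATCNCTA), an E-box (CAGCTG) or GAGA (GAGAG).
mRpS10/Art3, chr3R:15229480-15229600, + strand: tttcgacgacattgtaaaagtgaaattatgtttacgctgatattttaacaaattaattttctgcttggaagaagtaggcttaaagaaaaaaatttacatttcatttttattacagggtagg
Tcs5/CHMP2B, chr3L:5139438-5139558, + strand: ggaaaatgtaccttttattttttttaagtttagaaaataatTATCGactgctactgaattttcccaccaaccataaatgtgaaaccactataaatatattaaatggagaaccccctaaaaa
CG13390/CG17294, chr2L:8376818-8376938, + strand: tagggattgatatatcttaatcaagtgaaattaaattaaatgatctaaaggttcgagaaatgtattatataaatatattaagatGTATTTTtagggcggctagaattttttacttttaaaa
CenG1A/mRpS23, chr2L:13835382-13835502, + strand: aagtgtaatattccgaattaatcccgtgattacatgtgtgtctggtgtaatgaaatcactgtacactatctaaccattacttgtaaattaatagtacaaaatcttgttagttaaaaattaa
Lon/PIG-F, chr3L:19612267-19612387, + strand: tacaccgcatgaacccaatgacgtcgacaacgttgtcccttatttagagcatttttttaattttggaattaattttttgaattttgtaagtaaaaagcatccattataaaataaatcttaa
Hrd3/PTPMT1, chr3R:23758109-23758229, + strand: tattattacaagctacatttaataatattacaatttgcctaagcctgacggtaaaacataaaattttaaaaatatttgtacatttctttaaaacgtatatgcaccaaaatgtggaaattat
CG5611/Mtl, chr3R:27636135-27636255, + strand: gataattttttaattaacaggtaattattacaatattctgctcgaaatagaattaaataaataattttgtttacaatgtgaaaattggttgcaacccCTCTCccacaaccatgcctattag
Elp6/Dic1, chr3R:13364674-13364794, + strand: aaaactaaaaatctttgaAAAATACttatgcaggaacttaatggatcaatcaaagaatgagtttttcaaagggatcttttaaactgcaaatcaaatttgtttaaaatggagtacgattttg
CG18170/CG12104, chr3L:1602761-1602881, + strand: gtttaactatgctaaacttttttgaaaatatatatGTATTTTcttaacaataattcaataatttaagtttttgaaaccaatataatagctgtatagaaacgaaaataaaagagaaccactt

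Of these 9 windows, 4 held none of the motifs marked here and the other 5 held 1 such match each. Further motifs that are searched later on were not marked, so a window without capitals can still hold one of those. Motif 6 was matched in 3 of them, including the CG12104 promoter. All are visibly rich in runs of A and T, which is taken up with values for all members further on.

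The rule nearly fixes where a summit lies relative to the start sites, so positions are given as a description. The summit lay between the 2 start sites in 716 of 719 members (99.6%). In the other 3 members, SmydA-3/porin, CG31808/Cyt-c-d and Adck1/CG4741, the opposite-strand start site lay on the same side of the summit as the nearest one, so the transcripts overlap there instead of diverging. The members covered 665 distinct gene pairs and 1329 genes, and 54 pairs held 2 members each. The start sites of a pair were a median of 334 bp apart (quartiles 258 and 441 bp, range 31 to 939 bp).

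The median summit was 106 bp upstream of the nearer TSS and 229 bp upstream of the partner's. It was 53.5 bp from the midpoint, and 339 of 716 summits (47.3%) were within 50 bp of it. A summit between the start sites cannot be further from the nearer one than the midpoint is, so its distance is bounded by the gap. The median distance to the nearer TSS was 28 bp in the 59 members with start sites up to 200 bp apart, 86 bp at 200 to 300 bp, 117 bp at 300 to 400 bp, 129 bp at 400 to 500 bp and 218 bp in the 110 members with wider gaps. The narrowest pair was Uba4, a sulfur carrier activating enzyme, with mRpL51 of the mitochondrial ribosome, 31 bp apart and ranked 4028 of 4060. The widest was CG4949 with wcy, 939 bp apart and ranked 3856. The same rule applied to the 4060 highest regions of each replicate gave summits a median of 101 ± 3.82 bp (SD, n = 3) upstream of the nearer TSS.

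**Figure D1:**
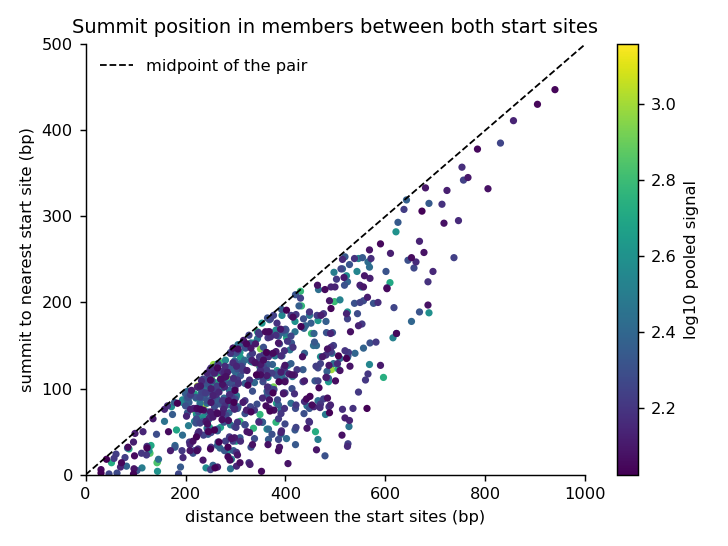
Each point is 1 of the 716 members whose summit lies between both start sites; the x axis is the distance between the start sites (bp), the y axis the distance from the summit to the nearer one (bp), and colour the log10 pooled signal. The dashed line is the midpoint, and the summits were a median of 53.5 bp from it.

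Membership turned on sharp limits. Just inside the 500 bp limit were Gnpat/CG5112, CG4949/wcy and app/CG32100, whose further start sites lay 491, 492 and 499 bp from the summit. Just outside were CG42613/Mpc1 and CtsK1/CG17364, both at 501 bp, and mRNA-cap/CG32599 at 504 bp. The requirement that the summit be upstream of its nearest TSS left out another 131 peaks that had an opposite-strand TSS within 500 bp but whose summit was at or past the nearest start site, by a median of 62 bp. Their median signal was 176. Among them were some of the highest peaks of the set: Chro/Ssl1 at signal 1320 (rank 11), CG11309/CG7632 at 1097 (rank 19) and CG9147/Fbw5 at 1085 (rank 20). Chro encodes Chromator, a protein of chromatin domain boundaries, and Ssl1 a subunit of TFIIH, so the count of 719 is a strict one for shared promoters.

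The peaks differed widely in height. Signal is the value the authors' peak caller gave each peak; it has no unit that is shared between lists, so only ranks, and ratios taken inside 1 replicate, are compared. Over members the signal in the list called on all replicates together had a median of 182 (quartiles 138 and 260, range 106 to 1437). Ranks ran from 9 to 4059, with a median of 1762. The peak caller gave 663 of 719 members the same width of 450 bp. The other 56 were shorter, and the members with the highest signal were among them.

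The highest member was the promoter shared by mRpS10, of the small subunit of the mitochondrial ribosome, and Art3, an arginine methyltransferase (chr3R:15229367-15229720). Its signal was 1437, and it ranked 10, 7 and 6 in replicates 1, 2 and 3, so it was among the highest regions of every library. Next came Tcs5, the kinase of the KEOPS complex that modifies tRNAs, with CHMP2B, a subunit of the membrane-scission machinery ESCRT-III (chr3L:5139346-5139652), at signal 1053 and ranks 46, 22 and 15. CG13390/CG17294 (chr2L:8376733-8377043) followed at 986, with ranks 58, 24 and 22. CenG1A, an Arf GTPase-activating protein, and mRpS23, another mitochondrial ribosomal protein (chr2L:13835308-13835605), had a signal of 984 and ranks 51, 27 and 29. The genes of these pairs differ in function, and the replicates kept all 4 within their 58 highest regions.

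Next in signal was the promoter of Lon, a protease of the mitochondrial matrix, and PIG-F of GPI-anchor synthesis (chr3L:19612162-19612522), with signal 954 and ranks 27, 35 and 48. Hrd3, of the degradation pathway of the endoplasmic reticulum, lies opposite PTPMT1, a mitochondrial lipid phosphatase (chr3R:23757943-23758354), with signal 928 and ranks 20, 46 and 58. Elp6, of the Elongator complex, lies opposite Dic1, a mitochondrial dicarboxylate carrier (chr3R:13364518-13364957), with signal 879 and ranks 29, 60 and 54. CG5611/Mtl had signal 885 and ranks 80, 31 and 41. These pairs were high in all 3 libraries, but their order changed between them.

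The remaining 4 of the 12 were Pal1/Pdrg1 (signal 869), CG18428/eIF4EHP (852), RpS27/Nup37 (847) and SLIRP2/Mkk4 (825). Their genes include eIF4EHP, a cap-binding repressor of translation, RpS27 of the small ribosomal subunit, the nucleoporin Nup37 and the stress kinase kinase Mkk4. SLIRP2/Mkk4 varied most of the 4, at ranks 114, 33 and 51. In RpS27/Nup37 the start sites are 144 bp apart and the summit was 15 bp from the nearer one, the closest among the 12.

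The CG12104 promoter was itself a member. The peak shared by CG12104 and CG18170 (chr3L:1602596-1603045) had a summit 133 bp from one start site and 147 bp from the other, in a gap of 280 bp, which is nearly central. Its signal was 356 (rank 501), with ranks 322, 748 and 599 in replicates 1, 2 and 3. Extra copies of this DNA in the transgene, if there are any, would add to this signal, and this was not tested. At the other end, the lowest members were CG2790/CG12851 (signal 106, ranks 2868, 6979 and 20310) and CG43273/Kaz (signal 106, ranks 3697, 5533 and 5043). The last rank of CG2790/CG12851 shows how far a weak member could fall in 1 library.

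**Figure D2:**
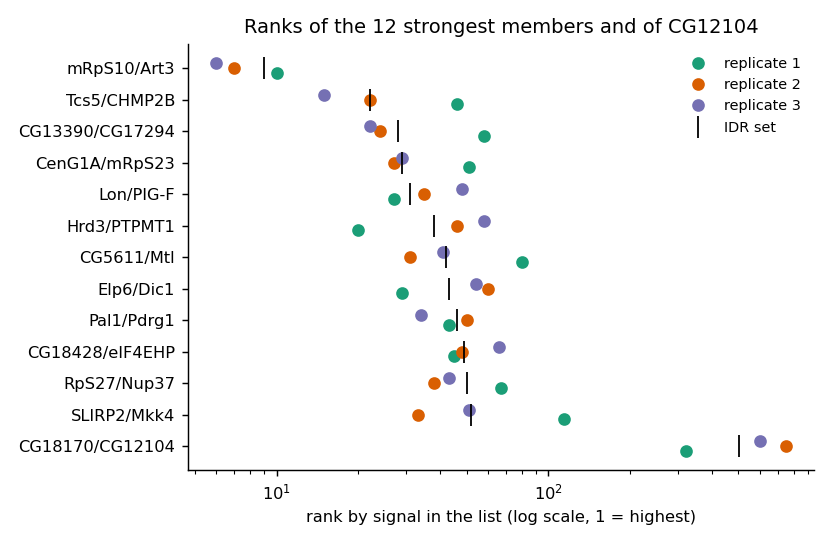
Rank by signal (log scale, 1 is highest) of the 12 members with the highest pooled signal and of the promoter of CG12104, in each replicate (points) and in the IDR set (black ticks). The mRpS10/Art3 promoter was within the 10 highest regions of every replicate, and CG18170/CG12104 ranked between 322 and 748.

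Replicate 1 ranked these promoters higher than the other libraries did. Among the 4060 highest regions of each replicate, a region overlapping the member was found for 682 members (94.9%) in replicate 1, 612 (85.1%) in replicate 2 and 576 (80.1%) in replicate 3. For all IDR peaks the shares were 83.5, 89.0 and 83.4%, without this order. In all 3 replicates together 508 members (70.7%) were found, beside 66.4% of all IDR peaks and 70.7% of the 1019 upstream peaks at non-divergent promoters. The replicates were among the libraries from which the IDR set was made, so this recovery is a description. When the class was rebuilt in each replicate it held 796, 623 and 588 regions, or 16.5% ± 2.74 (SD, n = 3) of the highest regions.

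The members were no higher or lower than other upstream peaks beyond the spread of the replicates. The ratio of the members' median signal to that of the upstream peaks at non-divergent promoters was 1.06, 0.916 and 0.841 in the 3 replicates, with a mean of 0.940 ± 0.114 (SD, n = 3; exact two-sided sign-flip permutation test, p = 0.50). Replicate 1 lay above 1 and the others below it, so the direction was not shared. Against promoter peaks with the summit at or past the TSS the mean ratio was 1.07 ± 0.0818 (SD, n = 3; exact permutation p = 0.50), and against peaks over 500 bp from any protein-coding TSS it was 1.12 ± 0.226 (SD, n = 3; exact permutation p = 0.75). With 3 replicates the smallest p this test can give is 0.25, so it cannot pass 0.05 for any result here. The replicates are separate biological samples of 1 line, and the spread does not cover other lines.

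The class was also present among weaker candidates. In the list called on all replicates together, which is ordered by signal and goes on beyond the IDR set, shared promoters made up 19.5% of regions ranked 1 to 507, 19.1% of those ranked 508 to 1015, 21.6% of ranks 1016 to 2030 and 15% of ranks 2031 to 4060. Past the IDR set the share was 7.39% for ranks 4061 to 8120, then 3.05%, and 1.22% in the last 10719 regions. Upstream regions at non-divergent promoters fell as well, from 37.5% of ranks 1 to 507 to 17.1% of ranks 4061 to 8120 and 7.31% of the last 10719. Another 679 candidate regions of the shared class lay outside the IDR set.

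Genes in head-to-head pairs had an upstream peak more often than other genes did. The annotation holds 2667 pairs of protein-coding genes on opposite strands whose start sites diverge over at most 1000 bp, and 5052 of 13945 protein-coding genes (36.2%) are in such a pair. An IDR summit lay within 500 bp upstream of 1717 of these 5052 genes (34.0%, Wilson 95% interval 32.7 to 35.3%) and of 769 of the 8893 other genes (8.65%, 8.08 to 9.25%), beside 17.8% of all genes. In the replicates' own highest regions the shares were 36.2, 29.9 and 29.1% for head-to-head genes and 8.92, 8.42 and 8.21% for the others, so the groups did not overlap. The difference was 23.2 ± 3.53 percentage points (SD, n = 3), and higher in 3 of 3 replicates (exact two-sided sign-flip permutation test, p = 0.25, the smallest possible).

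Part of this difference follows from counting, since 1 peak between a pair is upstream of both genes. Counted once per pair, 28% of the 2667 pairs (748) held a summit between their start sites. Crowding without a head-to-head partner was counted too. Among the 3536 genes that have a gene on the same strand ending within 1000 bp upstream, and no head-to-head partner, 9.42% had an upstream peak, beside 8.14% of the 5357 remaining genes. Head-to-head genes exceeded these close tandem genes by 22.6 ± 2.89 percentage points (SD, n = 3; exact permutation p = 0.25). The comparison with tandem genes was chosen after seeing the data.

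The share also varied with the distance between the start sites. A summit lay between the start sites in 42.8% of 542 pairs 200 to 300 bp apart and in 47.5% of 400 pairs 300 to 400 bp apart. It did in 5.59% of the 429 pairs up to 100 bp apart, in 9.80% of the 357 pairs 100 to 200 bp apart, and in 23.3% of the 193 pairs 800 to 1000 bp apart, against 28% of all pairs. From pairs up to 200 bp apart to pairs of 200 to 400 bp the share rose from 8.52 to 46.9% in replicate 1, from 6.87 to 38.6% in replicate 2 and from 6.36 to 38.0% in replicate 3. These ranges were chosen after seeing the data. The difference was in the same direction in 3 of 3 replicates, at 33.9 ± 3.86 percentage points (SD, n = 3; exact two-sided sign-flip permutation test, p = 0.25).

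A short gap also leaves less room for a summit. Per kb of gap the IDR set held 0.985 summits in pairs up to 100 bp apart and 0.672 at 100 to 200 bp. It held 1.70 at 200 to 300 bp, 1.52 at 300 to 400 bp, 0.920 at 400 to 500 bp and 0.307 at 800 to 1000 bp. Per kb the narrowest pairs thus stood above the widest, unlike in the share of pairs. The part of room in the result was not tested. The pairs were counted again within 200 bp of the midpoint, an alternative chosen after seeing the data, in which the windows of pairs up to 200 bp apart reach past the start sites into the genes. A summit then lay in the window of 45.2% of pairs 200 to 300 bp apart and 48.0% of pairs 300 to 400 bp apart, with 21.4% of pairs up to 100 bp apart and 19.9% of those 100 to 200 bp apart. The difference between the ranges was then 23.7 ± 2.47 percentage points (SD, n = 3; exact permutation p = 0.25). The median signal of members was 186 for gaps up to 200 bp, 197 for 200 to 300 bp, 184 for 300 to 400 bp, 179 for 400 to 500 bp and 163 for wider gaps.

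**Figure D3:**
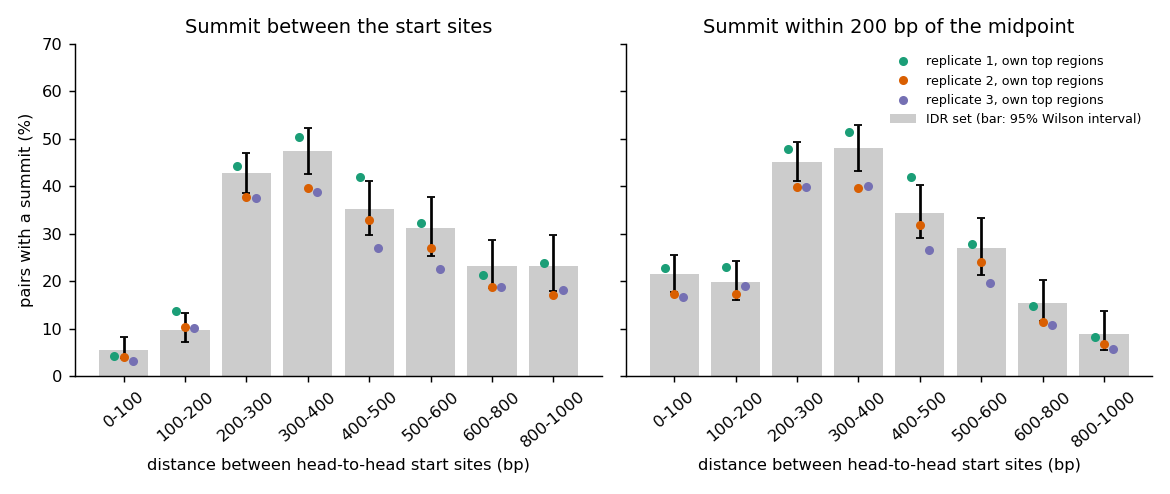
Percent of head-to-head pairs with a summit (y axis) by the distance between their start sites in bp (x axis), counted between the start sites (left) or within 200 bp of the midpoint (right); grey bars are the IDR set with Wilson 95% intervals and points are the replicates' own 4060 highest regions. Pairs 300 to 400 bp apart reached 47.5% (left) and 48.0% (right), the highest bin in both panels.

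The X chromosome had fewer bound shared promoters. A summit lay between the start sites in 77 of 403 head-to-head pairs on X (19.1%, Wilson 95% interval 15.6 to 23.2%). The arms of the large autosomes had 26.7% (2L), 26.3% (2R), 32.6% (3L) and 32.7% (3R). None of the 11 pairs on chromosome 4 had an IDR summit, which allows a share of up to 27.3% (3 counts of the total). In the highest regions of replicates 1, 2 and 3 the share on chromosome 4 was 9.09, 0 and 9.09%. In the replicates the difference of X from the 4 large autosomal arms was -14.0, -9.95 and -11.1 percentage points, with a mean of -11.7 ± 2.12 (SD, n = 3; lower in 3 of 3 replicates, exact two-sided sign-flip permutation p = 0.25). Among pairs 200 to 400 bp apart the shares were 26.7% of 135 pairs on X and 47.9% of 806 on the autosomal arms, in the IDR set and without a test. Of genes that are not head to head, an upstream peak was found at 9.55% of 1413 such genes on X and 8.46% of 7422 on the autosomal arms. The difference between these contrasts was not tested, and the comparison of arms was chosen after seeing the data. Embryos of both sexes were pooled, so males carry fewer copies of X than of an autosome, and the part of copy number in this result was not tested.

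In 54 pairs a second summit was called, and 50 of these had each summit nearest a different gene of the pair. Their start sites were a median of 400.5 bp apart and the summits 203.5 bp apart, with the higher summit a median of 1.53 times the lower in signal. CG5611/Mtl was such a pair. The summits of 39 of the 54 pairs were at most 210 bp apart, and 199 bp, the smallest distance among them, was also the smallest between any 2 summits of the whole IDR set, so summits closer than this could not be told from single ones. In 51 of the 54 pairs both members were matched to the same region in every replicate and so share its rank. The weaker member then carries the replicate value of the region that the stronger one also matched. Such shared values enter the recovery and the signal ratios given above, and their part there was not tested. The widest pair of summits, at Elp6/Dic1, was 2634 bp apart and involves alternative start sites.

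Several gene lists of basic cell functions had a larger share of genes at these promoters than protein-coding genes in general, and also a larger share of genes in head-to-head pairs. Of all protein-coding genes, 9.53% (1329 of 13945) were at a member, and this is the background for each list. The cytoplasmic ribosomal proteins had 33 of 92 genes at members (35.9%, Wilson 95% interval 26.8 to 46.1%; 34.8% ± 1.88 over the replicates, SD, n = 3). The mitochondrial ribosomal proteins had 27 of 73 (37.0%, 26.8 to 48.5%; 29.2% ± 5.19, SD, n = 3). In all 3 replicates both lists lay above the 7.94 to 10.3% of all genes. No member joined 2 genes of the same ribosomal list, so each ribosomal protein gene at a member had a partner from outside its own list. How many head-to-head pairs of the annotation join 2 genes of a list was not counted.

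These ribosomal lists reached the same share in different ways. Of the 92 cytoplasmic ribosomal protein genes 55 are in head-to-head pairs, and 45 of these (81.8%) had an upstream IDR peak, beside 34.0% of all head-to-head genes. Of the 37 that are not, 19 (51.4%) had one too, beside 8.65% of all such genes. Of the 73 mitochondrial ribosomal protein genes 58 are head to head (79.5%), and 31 of these (53.4%) had an upstream peak, against 1 of the 15 others (6.67%). The lists also differed in height: the median signal of members was 312 for the cytoplasmic and 162 for the mitochondrial list, beside 182 for all members.

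RpS27/Nup37, described above, was the highest promoter of a cytoplasmic ribosomal protein gene, at signal 847. The list includes the pair of RpL13 with Dref, the gene of the DRE-binding factor, at signal 260 with start sites 84 bp apart. RpL28 of the large subunit and the start-codon scanning factor eIF1 share a promoter that held 2 members, at signals 578 and 395. The mitochondrial list ran from mRpS10/Art3 to Droj2/mRpS21 at signal 106 and was thus spread over nearly the whole range of heights.

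The transcription and splicing machinery followed. RNA polymerase II, its general factors and Mediator had 16 of 65 genes at members (24.6%; 24.6% ± 4.07 over replicates, SD, n = 3), of which 47 are head to head and 22 of these (46.8%) had an upstream peak. Polr2B, the second largest subunit of the polymerase, lies opposite 140up at signal 435 (ranks 391, 309 and 357), and MED17, of the Mediator head, opposite CG12321 at 362 (ranks 373, 471 and 1156). The spliceosome list had 7 of 29 genes (24.1%; 24.1% ± 3.45, SD, n = 3). But 26 of the 29 are head to head, and 7 of these 26 (26.9%) had an upstream peak, below the 34.0% of all head-to-head genes. The highest members were Tnpo/Sf3b6 at 309 and PIG-Q/U2af50 at 237. U2af50 encodes the factor that binds the polypyrimidine tract of introns.

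Aminoacyl-tRNA synthetases had 7 of 33 genes at members (21.2%; 19.2% ± 3.50, SD, n = 3), led by IleRS/Hem at signal 376 and AP-1sigma/GluProRS at 343. Of the 33, 23 are head to head and 8 of these (34.8%) had an upstream peak, close to the 34.0% of all head-to-head genes. Chromatin and insulator proteins, of which 12 are head to head, had 4 of 20 (20%; 15% ± 5.0, SD, n = 3). These include Cp190, a cofactor of insulator proteins, opposite CG4338 at 703 (ranks 73, 93 and 99), and brm, the ATPase of the Brahma remodelling complex, opposite Arl1 at 678 (ranks 155, 63 and 136). Of the 12 head-to-head chromatin and insulator genes, 6 (50%) had an upstream peak. The intervals of both lists are wide, from 10.7 to 37.8% and from 8.07 to 41.6%. All their replicate values lay above those of all genes in the same replicate, the nearest being 10% beside 8.38% for chromatin proteins in replicate 2.

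Other lists stood nearer to the background of 9.53%, which also counts genes without a head-to-head partner. Of their head-to-head genes, 7 of 23 (30.4%) had an upstream peak for DNA replication and cell cycle and 8 of 26 (30.8%) for the proteasome. The counts were 16 of 45 (35.6%) for the respiratory chain and ATP synthase and 12 of 28 (42.9%) for translation factors. Of all head-to-head genes 34.0% had one. DNA replication and cell cycle had 7 of 46 genes (15.2%; 13.0% ± 3.77, SD, n = 3). It alone had members with both genes from the list: RPA1, which coats single-stranded DNA, and Mcm2, of the replicative helicase, share a promoter 519 bp long that held 2 members, at signals 218 and 132. Its highest member was Cdk12/SAK at 396, a kinase of the polymerase tail opposite the kinase of centriole duplication. The respiratory chain and ATP synthase had 13 of 90 (14.4%; 14.4% ± 4.44, SD, n = 3), with the complex I genes ND-MWFE, opposite TppII, at 391 and ND-ASHI, opposite Fum1, at 382. Translation factors had 7 of 54 (13.0%; 11.7% ± 3.85, SD, n = 3), led by eIF4EHP and eIF1, described above.

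Proteasome genes were at members in 6 of 48 cases (12.5%; 6.94% ± 4.81, SD, n = 3). The highest were Rpn3/l(2)37Bb at 225 (rank 1195) and Slbp/Rpn2 at 134 (rank 2862), beside a median rank of 1762 for all members. The Hox and segmentation list, of developmental regulators, had 0 of 24 genes at members. None of the 24 is in a head-to-head pair, so this 0 was set by the annotation and says nothing about binding. An upstream peak was found at 2 of the 24 (8.33%), beside 8.65% of all genes that are not head to head. In all, 128 of 719 members (17.8%) held a gene of any of the 11 lists, so most members lay outside them.

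**Figure D4:**
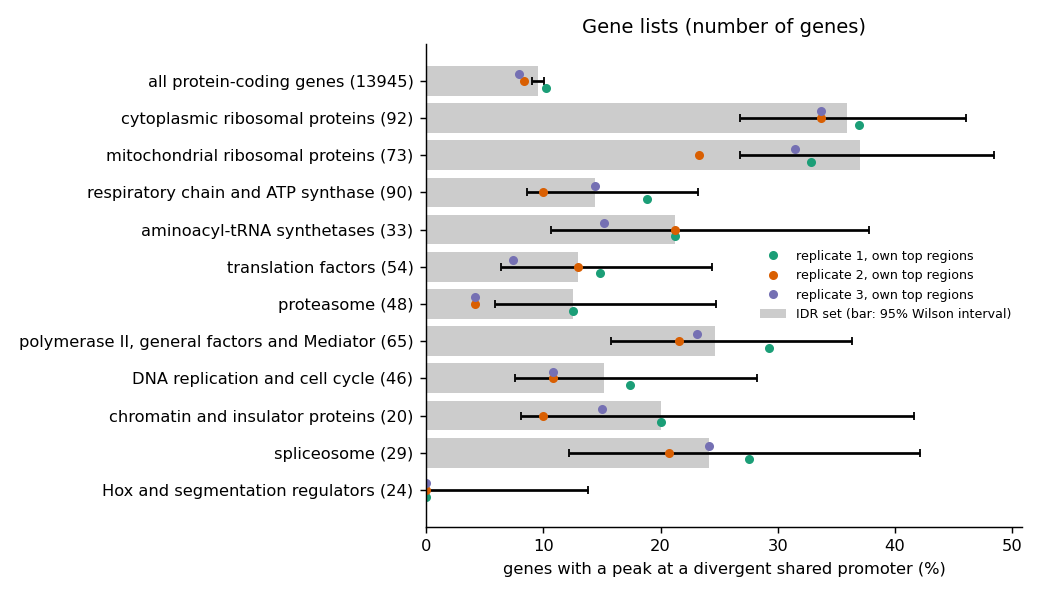
Percent of the genes of each list with a peak at a divergent shared promoter (x axis; list sizes in brackets): grey bars are the IDR set with Wilson 95% intervals, points the replicates' own 4060 highest regions. Cytoplasmic (35.9%) and mitochondrial ribosomal proteins (37.0%) stood furthest above all protein-coding genes (9.53%).

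The DNA at members differed in motif content from that at other upstream peaks. DNA reaching 100 bp to either side of a summit was searched on both strands for 16 short motifs. DRE was found in 9.87% of members and 4.81% of non-divergent upstream peaks, and in 7.39% of windows of the same length at all promoters (centred 100 bp upstream of the start). The BEAF-32 core, which every DRE contains, was in 40.9 and 30.9% (all promoters 38.4%), Motif 7 in 8.76 and 5.10% (3.70%), Motif 6 in 17.0 and 11.5% (12.7%) and Motif 1 in 4.87 and 2.36% (3.74%). The E-box CAGCTG was in 10.0 and 6.38% (11.6%). These elements were thus commoner at members than at the other upstream peaks, while the BEAF-32 core and CAGCTG stood near their level at promoters in general. Motif 1 (5.63%) and CAGCTG (13.9%) were commoner still in promoter peaks with the summit at or past the TSS. A window at a member can take in DNA next to both start sites of the pair. Non-divergent upstream peaks have no such partner start site within 500 bp. The classes were not matched for the number of start sites or the distance to them, and the part of this in the shares was not tested.

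Bound and unbound head-to-head pairs did not show the same differences. Windows centred on the midpoint of pairs at least 100 bp apart held DRE in 6.08% of 724 pairs with an IDR summit and 5.80% of 1516 pairs without one. The BEAF-32 core was in 33.6 and 38.7%, Motif 1 in 2.21 and 3.56% and CAGCTG in 6.08 and 10.7%, so these were no commoner, or rarer, where a peak was called. Motif 6 was in 15.1 and 13.4%, Motif 7 in 5.66 and 3.17% and TATAAA in 50.7 and 38.8%. These shares are a description, with no test. The pairs were not matched for the distance between their start sites. A window centred on the midpoint holds less of the DNA next to the start sites as that distance grows. The part of this in the shares was not tested.

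GAGA went the other way: GAGAG was in 14.5% of members, 23.5% of non-divergent upstream peaks and 22.2% of all promoters. It was in 14.4% of head-to-head pairs with a summit and also in 14.4% of those without. The letters of a TATA box (TATAAA) were in 49.8, 40.1 and 37.0%. The Sox core (ACAATG), a site of the HMG boxes of the Sox family, was in 9.32, 10.8 and 10.0%. The TCF core (CTTTGA) was in 10.2, 11.0 and 11.6%, so in the IDR set both were slightly rarer in members. In the replicates' own highest regions the difference between members and other upstream peaks had the same sign in 3 of 3 replicates for 13 of the 16 motifs. DRE differed by 6.50 ± 0.682 percentage points (SD, n = 3), the BEAF-32 core by 12.6 ± 1.89, GAGA by -11.8 ± 1.10 and TATAAA by 8.72 ± 0.666. The Sox core, also among the 13, differed by -1.18 ± 0.653. The TCF core was not among them and differed by 1.51 ± 1.52, a mean of the opposite sign to its difference in the IDR set. The exact sign-flip permutation p was 0.25 for each of the 13, and 0.308 after Benjamini-Hochberg adjustment over the 16 motifs, so none passed 0.05.

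The remaining motifs were rare or alike in both classes. CACGTG was in 1.95% of members and 1.67% of other upstream peaks, CACCTG in 5.29 and 4.32%, the Zelda core (CAGGTA) in 3.20 and 3.73%, and the ETS core (CCGGAA) in 3.89 and 4.61%. The NRF1-like GCGCATGC was in 2 members and the cAMP response element (CRE, TGACGTCA) in 3. The 3 members with a CRE were l(2)gd1/Reps, Vps33B/Fur1 and PIG-Q/U2af50, with signals 731, 598 and 237, beside a median of 182 for all members. They were singled out after their values were seen.

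The elements differed in where they lay. Where it occurred in a member, Motif 1 was a median of 16.5 bp from the nearer TSS and 73.5 bp from the summit, and Motif 7 was 31.5 bp from the TSS and 65.5 bp from the summit. DRE was at similar distances from both, 38.5 bp from the TSS and 41.5 bp from the summit. The BEAF-32 core was 59.5 bp from the TSS and 40.5 bp from the summit, and Motif 6 was 96.5 and 38.5 bp away. TATAAA was 119.5 bp from the nearer TSS and 37.5 bp from the summit, further upstream than a working TATA box lies. The search reached 100 bp from the summit, which bounds these summit distances. At non-divergent upstream peaks they were 43.5 bp for Motif 1 and for Motif 7, and 36.5 bp for DRE. They were 40 bp for the BEAF-32 core, 48 bp for Motif 6 and 36.5 bp for TATAAA there. The ratio of median signal in members with the motif to those without was 0.921 ± 0.0625 for DRE, 0.849 ± 0.0207 for Motif 1 and 1.03 ± 0.0428 for Motif 7 (SD, n = 3 replicates; exact permutation p = 0.25, 0.25 and 0.50).

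The summits lay in AT-rich DNA, close to the most AT-rich part of the shared stretch. The G+C content within 100 bp of the summit was 32.3% in members, 34.4% in non-divergent upstream peaks, 37.7% in promoter peaks with the summit at or past the TSS and 34.9% in peaks far from start sites, beside 38.6% at all promoters. In the replicates' own regions the difference of members from other upstream peaks was -2.29, -1.96 and -2.15 percentage points, with a mean of -2.13 ± 0.163 (SD, n = 3; lower in 3 of 3 replicates, exact permutation p = 0.25). In bins of 20 bp the lowest mean of members was 27.6%, at 50 bp from the summit on the side away from the nearer start site. In members that is the side of the midpoint. Non-divergent upstream peaks had their lowest mean, 31.7%, in the same bin, so this place of the dip was not particular to shared promoters. The longest run of A and T within 60 bp of the summit had a median of 12 bases in members and 11 in the other upstream peaks. Motifs made of A and T, TATAAA among them, and motifs rich in G and C move with this composition, and its part in their shares was not tested.

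Base composition also separated pairs with a peak from pairs without one. Among the 942 head-to-head pairs 200 to 400 bp apart, G+C within 100 bp of the midpoint was 29.4% in the 422 pairs with an IDR summit and 32.3% in the 520 without. In the replicates the difference was -3.19, -2.78 and -2.80 percentage points, or -2.92 ± 0.227 (SD, n = 3; exact permutation p = 0.25). Split into 4 groups of rising G+C (218 to 267 pairs each), 56.0% of pairs in the most AT-rich group held a summit, then 45% and 45.3%, and 33.8% in the most GC-rich group. The lowest group exceeded the highest by 26.6, 20.7 and 20.2 percentage points in the replicates (22.5 ± 3.58, SD, n = 3; exact permutation p = 0.25). Sequencing and amplification can themselves depend on base composition, and the control alignment that would show it was not analysed here.

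**Figure D5:**
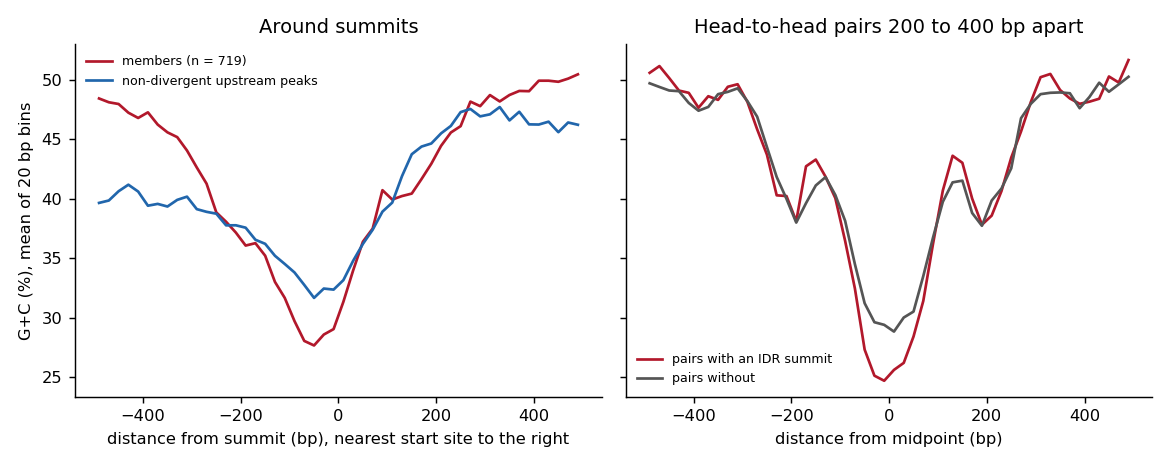
Mean G+C content (%, y axis, bins of 20 bp) by distance in bp (x axis) from the summit, with the nearest start site to the right (left panel), and from the midpoint of head-to-head pairs 200 to 400 bp apart (right panel). Members reached 27.6% beside their summit, and pairs with an IDR summit 24.7% beside their midpoint.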

How the data were processed

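ChIP-seq of GFP-tagged CG12104 was measured in 3 biological replicates of whole embryos, which form 1 group. Per the deposited text lists, the authors called the regions of each replicate on that replicate against 1 control alignment, called a pooled list on the 3 replicates together, and derived the IDR set from these. Aligner and caller names were not given in the sources used here. The lists hold a signal value per region, deposited by the authors and not scaled between lists, and the -log10 of a q value, which the authors also deposited. They give no read counts, so depth is unknown. Coordinates are dm6 and 1-based.

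Start sites were those of all protein-coding transcripts of protein-coding genes in Ensembl BDGP6 (release 115). The sequences were read from the NCBI Release 6 assembly of RefSeq, and no region ended beyond it. A summit was assigned to its nearest start site. A tie went to the upstream side. An IDR peak was matched to a replicate's region by an overlap of at least 1 bp, taking the highest region where several overlapped, and each replicate's own set was its 4060 regions with the highest signal. Ratios and differences were computed within each replicate and tested by an exact two-sided sign-flip permutation over the 3 replicates (smallest p 0.25, or 0.5 for 2 replicates). Wilson 95% intervals cover counting error over regions or genes only. The gene lists were made by symbol. Named are CG12104, the 12 members with the highest signal, up to 2 of the highest per gene list, the 2 lowest and those with the widest and narrowest gaps. Some items that this rule names are not reported here. Where a few others are named, they were chosen after their values were seen. The members and lists were chosen with earlier results of these data known. Scripts were tested on simulated data (Python 3.11.15, numpy 2.4.6, pandas 2.3.3, scipy 1.17.1). Comparisons by gap, by arm, with tandem genes, and of base composition, motif position and motif signal were chosen after seeing the data. The alternatives were other windows, start sites, thresholds, overlaps and motif windows, and leaving out each replicate. The dm3 lists were not used.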

Additional observations from a re-analysis of the deposited data

How the results depend on the processing

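The count of 719 members fell to 289 with a window of 200 bp and to 415 in the 2030 IDR peaks with the highest signal, as fewer peaks can qualify by construction. It was 839 with 1000 bp, 640 with only the most upstream start site of each gene, and 530 to 581 when 1 replicate was left out. The share with the summit between the start sites was 100% with 200 bp and 97.2% with the most upstream start sites. The signal ratio to non-divergent upstream peaks (geometric mean 0.935) reversed to 1.04 with 200 bp (exact permutation p = 0.25), and the cause was not tested. Recovery in all 3 replicates was 94.9% for the 2030 peaks with the highest signal and 40.2% with 2030 top regions per replicate, where fewer regions can be matched by construction. The head-to-head difference of 23.2 percentage points lay between 14.4 and 25.5 over its alternatives and between 21.2 and 24.4 when 1 replicate was left out. With motif windows of 50 bp to each side, 9 instead of 13 of the 16 motifs kept 1 sign in all 3 replicates. The difference shrank from 6.50 to 2.87 percentage points for DRE and from 12.6 to 7.38 for the BEAF-32 core. It shrank from 2.55 to 0.685 for Motif 1, from 4.70 to 0.589 for Motif 7 and from -11.8 to -5.15 for GAGA. Of the motif differences, those of rare or similar motifs changed sign: CACGTG to -0.0490, CACCTG to -0.377 and NRF1-like to 0.0971 percentage points with 50 bp to each side, CACGTG to -0.361 and ETS to -0.0848 with the 2030 regions of highest signal per replicate. When 1 replicate was left out, NRF1-like ranged from -0.0919 to 0.0522 and ETS from -0.280 to 0.687. The cause of these changes was not tested. The lists hold no read counts, so the precision of a single peak is unknown, and with 3 replicates no test here could pass 0.05.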
